A study of Mus musculus with 16 samples.

Results

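The effect of minocycline on hypothalamic RNA was measured with all 16 libraries of the series, 8 from mice given minocycline against 8 from mice not given it. The libraries were chosen by treatment alone, and all 15792 genes shared by the 2 deposited tables were tested. Every mouse was a female C57BL/6 that ate a high fat diet (45 kcal% from fat) for 12 weeks from 10 weeks of age. MINO mice had that diet and minocycline in the drinking water at 0.6 mg/mL, and CTRL mice had the diet alone. OLZ+MINO mice had the same minocycline together with the antipsychotic olanzapine, mixed into the diet at 54 mg/kg, and OLZ mice had the olanzapine diet alone. There were 4 mice per group, with 1 library of total hypothalamic RNA from each. The additive model has a term for olanzapine, so its minocycline coefficient is the mean of the difference in mice without olanzapine (MINO against CTRL) and the difference in mice with it (OLZ+MINO against OLZ). These 2 comparisons are called the olanzapine-free arm and the olanzapine arm, and they share no library.

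Minocycline is a tetracycline. Tetracyclines stop bacterial protein synthesis by binding the small ribosomal subunit, and they are known to bind the mitochondrial ribosome as well, which descends from a bacterial one. The mitochondrial genome encodes the RNA core of that ribosome (mt-Rnr1 in the small subunit, mt-Rnr2 in the large), a set of transfer RNAs, and messenger RNAs for core subunits of the respiratory chain. Both strands are transcribed as long precursors that are cut into single RNAs. The protein subunits of the ribosome, its translation factors and most respiratory chain subunits come from nuclear genes.

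Values are scaled counts, whole numbers that behave as reads per gene times 1 factor for each library, rounded. The libraries summed to 8432459 to 9393786 scaled counts, resting on an estimated 8000000 to 9740000 reads. A gene is said to rise or fall at an adjusted p under 0.05 (limma, Benjamini-Hochberg over all 15792 genes), and 0.3 is given beside it. Log2 fold changes are differences in log2(value + 1), for which the median gene had a main effect of 0.0011. Nothing in the labels ties mice to litters or days, so p-values rest on the spread between these mice. The mice without minocycline are numbered 3 to 19 and those with it 26 to 48. Anything that follows the numbering therefore cannot be told apart from minocycline in either arm. In bulk tissue, fewer cells of a type and less RNA per cell cannot be told apart.

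Some libraries stood apart. The hypothalamic peptide genes Avp, Oxt, Pmch and Hcrt were detected in all 16 libraries, but in OLZ+MINO mouse 48 they had 91, 26, 415 and 40 scaled counts, each the lowest of the 16 libraries. The mean log2 level of 13 thalamus markers was 10.4 in OLZ+MINO mouse 48 and 8.92 in CTRL mouse 11, against 7.44 to 7.89 in the other 14 libraries. In CTRL mouse 5, the predicted gene Gm26924, known to hold sequence of nuclear ribosomal RNA, took 3.31% of all scaled counts, against 0.15% to 1.5% in the other 15.

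Minocycline raised 2 genes and lowered 0 in the main effect, which is 0.0127% of the genes tested. Both, mt-Nd3 and mt-Co3, are mRNAs of the mitochondrial genome. At an adjusted p under 0.3, 6 genes were higher (0.038% of the genes tested) and 0 lower, and 5 of the 6 were mitochondrial: mt-Nd3, mt-Co3, mt-Cytb and the ribosomal RNAs mt-Rnr1 and mt-Rnr2. The other was the nuclear gene Setd1b. At an unadjusted p under 0.05, 448 genes were higher (2.84%) and 424 lower (2.68%), and the smallest adjusted p of any lower gene was 0.626.

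The sequences below include bases that neighbouring mitochondrial genes share. They are the plus strand of chrM in GRCm38, read at the GENCODE coordinates of each gene, and the submitters' processing notes name the build mm9 for the deposited values. The first is the opening 300 bases of the 348-base mt-Nd3 gene, chrM:9459-9758, the gene with the smallest p, with its first codon in capitals. The second is mt-Nd4l, chrM:9877-10173, with the 7 bases it shares with mt-Nd4 in capitals. The third is mt-Atp8, chrM:7766-7969, with the 43 bases it shares with mt-Atp6 in capitals.
mt-Nd3: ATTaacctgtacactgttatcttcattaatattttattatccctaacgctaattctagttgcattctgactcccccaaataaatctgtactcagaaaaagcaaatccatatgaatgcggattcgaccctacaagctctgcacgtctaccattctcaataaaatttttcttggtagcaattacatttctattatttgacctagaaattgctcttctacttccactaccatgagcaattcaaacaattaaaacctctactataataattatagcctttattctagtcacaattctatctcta
mt-Nd4l: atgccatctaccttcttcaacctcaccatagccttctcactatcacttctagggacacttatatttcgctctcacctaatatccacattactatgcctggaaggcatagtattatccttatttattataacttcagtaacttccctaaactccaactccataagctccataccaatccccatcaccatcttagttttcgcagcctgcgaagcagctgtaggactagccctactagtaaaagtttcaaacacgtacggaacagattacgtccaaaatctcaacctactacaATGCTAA
mt-Atp8: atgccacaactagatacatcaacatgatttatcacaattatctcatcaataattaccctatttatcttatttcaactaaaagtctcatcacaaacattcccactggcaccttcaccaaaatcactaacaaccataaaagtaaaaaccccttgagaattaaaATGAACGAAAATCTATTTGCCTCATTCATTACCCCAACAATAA
mt-Nd4l is identical over 294 of 294 bases to the annotated nuclear gene Gm10222 (chr1:24612407-24612700), and the 2 had the same scaled count in every library, so their reads cannot be told apart. No other mitochondrial gene was compared with nuclear sequence. Whether mt-Nd3 or mt-Co3 shares reads with a nuclear copy was therefore not tested. mt-Atp8 and mt-Atp6 share bases, and mt-Nd6, the only mRNA gene on the minus strand, overlaps the end of mt-Nd5. Whether reads were counted by strand is not stated in the labels or methods.

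The ribosomal RNAs had the largest differences of the mitochondrial genome. Ribosomal RNA counts, those of Gm26924 included, also depend on the RNA selection, which is not stated. The part of RNA selection in the differences given here and below was not tested. mt-Rnr2 had 933343, 766126, 707135 and 861343 scaled counts in MINO mice, against 560715, 509762, 476325 and 586417 in CTRL mice. It had 841757, 852491, 806520 and 811973 in OLZ+MINO mice, against 521652, 585218, 566663 and 590782 in OLZ mice. Every library with minocycline was thus above every library without it. The log2 fold change was 0.58 (standard error (SE) 0.11, limma adjusted p = 0.191), a fold of 1.5, with 0.61 in the olanzapine-free arm and 0.55 in the olanzapine arm. Without the intensity trend of the limma fit, mt-Rnr2 was the only gene called, at an adjusted p of 0.00309. Over its alternatives the adjusted p ran from 0.00309 to 1.

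As a share of the library, mt-Rnr2 took 9.01 ± 0.879% in MINO and 6.03 ± 0.505% in CTRL, and 9.17 ± 0.306% in OLZ+MINO and 6.62 ± 0.327% in OLZ (SD, n = 4 each). The mean difference was 2.76 percentage points (p = 0.000408, the smallest that a two-sided exact permutation test within arms can give, with 4900 arrangements; 0.00245 after adjustment over 6 measures of this kind). The shares did not overlap in either arm, which alone sets p at that smallest value. mt-Rnr2 was chosen with earlier results of these data known, and the adjustment does not cover that choice. mt-Rnr1, the RNA of the small subunit, took 1.47 ± 0.273% in MINO and 1.03 ± 0.210% in CTRL, and 1.65 ± 0.0954% in OLZ+MINO and 1.03 ± 0.107% in OLZ (SD, n = 4 each). Here MINO and CTRL overlapped, since MINO mouse 35 had 1.19% and CTRL mouse 11 had 1.27%. Its log2 fold change was 0.66 (SE 0.11, limma adjusted p = 0.0852).

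mt-Nd3, a subunit of complex I, the entry point of electrons into the respiratory chain, had 5421, 4981, 5203 and 6362 scaled counts in MINO mice, against 4741, 4032, 3156 and 4281 in CTRL mice. It had 4988, 6066, 5250 and 6595 in OLZ+MINO mice, against 3520, 4063, 3938 and 3708 in OLZ mice. The groups did not overlap in either arm, and the lowest CTRL value was that of CTRL mouse 5. mt-Nd3 rose by 0.51 on the log2 scale (SE 0.080, 95% interval 0.35 to 0.68, limma adjusted p = 0.0358).

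mt-Co3, a subunit of cytochrome c oxidase (complex IV), had 45592, 42296, 43120 and 50477 scaled counts in MINO mice, against 37417, 34501, 29516 and 37097 in CTRL mice. It had 43337, 50790, 43313 and 52066 in OLZ+MINO mice, against 31942, 35562, 35246 and 33639 in OLZ mice. Again no library with minocycline was below one without it. mt-Co3 rose by 0.43 (SE 0.067, 95% interval 0.29 to 0.57, limma adjusted p = 0.0358). mt-Cytb, a subunit of complex III, had means of 13240 ± 1415 in MINO and 9986 ± 1436 in CTRL, and 13820 ± 1829 in OLZ+MINO and 10230 ± 933.5 in OLZ (SD, n = 4 each), also with no overlap in either arm. Its log2 fold change was 0.42 (SE 0.079, limma adjusted p = 0.131).

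**Figure D1:**
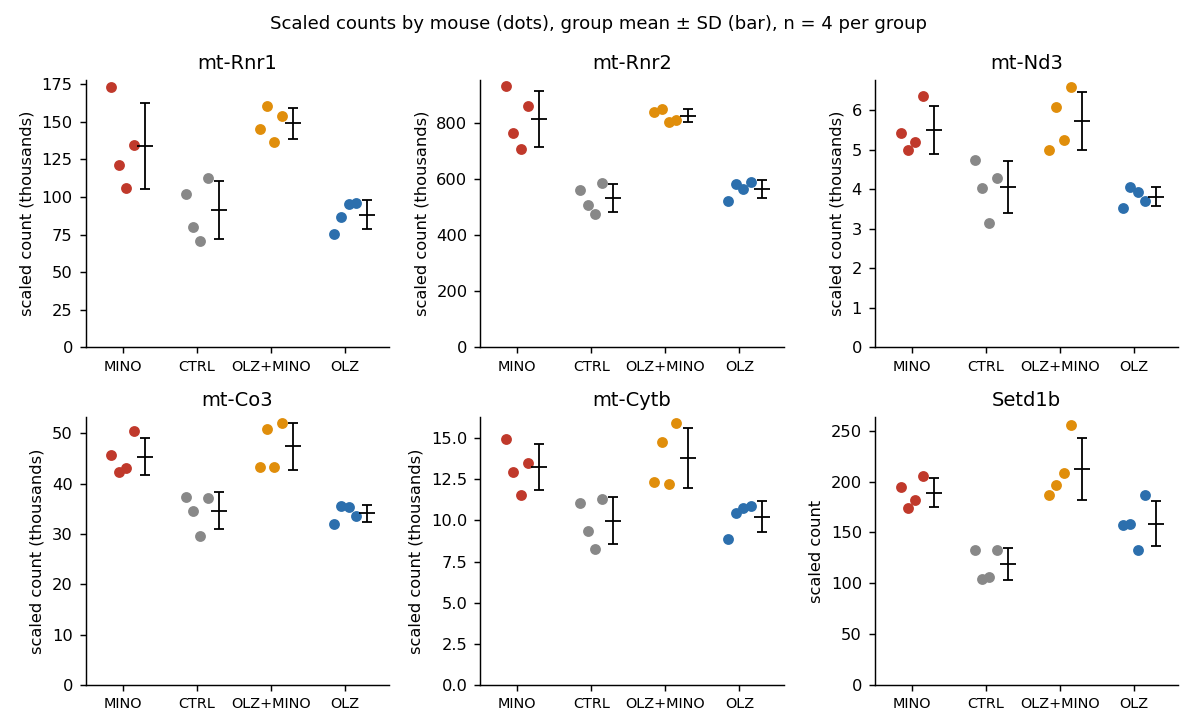
Scaled counts of the 6 genes with an adjusted p under 0.3, by mouse (dots) with the group mean ± SD (bar, n = 4), for MINO, CTRL, OLZ+MINO and OLZ. mt-Rnr2, mt-Nd3, mt-Co3 and mt-Cytb show no overlap in either arm, whereas mt-Rnr1 overlaps between MINO and CTRL and Setd1b meets OLZ at 187 in OLZ+MINO.

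The remaining mitochondrial mRNAs did not pass the test, but all had a positive log2 fold change. The ATP synthase subunits had 0.40 (mt-Atp8) and 0.36 (mt-Atp6). The other complex I subunits ran from 0.12 (mt-Nd1) to 0.40 (mt-Nd4), and the other cytochrome c oxidase subunits had 0.25 (mt-Co1) and 0.22 (mt-Co2). Of the 2 ribosomal RNAs and 13 mRNAs, 15 of 15 were positive in each arm and 14 had an unadjusted p under 0.05, the exception being mt-Nd1. These genes are cut from shared precursors and share a library, so they are not 15 separate observations. Their median log2 fold change was 0.38, with 0.34 in the olanzapine-free arm and 0.42 in the olanzapine arm, beside 0.0011 over all genes.

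In the olanzapine-free arm 4 of the 15 were above CTRL without overlap, where 1.44% of all genes were, and in the olanzapine arm 12 of the 15 were above OLZ, where 3.52% of all genes were. The exceptions in the olanzapine arm were mt-Nd1, mt-Co2 and mt-Atp8. The smallest unadjusted p for a difference between the arms among the 15 was 0.208, and the 95% interval of that difference for mt-Rnr2 was -0.50 to 0.38. The 4 transfer RNA genes measured had 2 to 658 scaled counts, and their log2 fold changes were -0.53 (mt-Ta), -0.07 (mt-Tq), 0.12 (mt-Ts1) and 0.26 (mt-Te), with no adjusted p below 0.866 (limma).

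**Figure D2:**
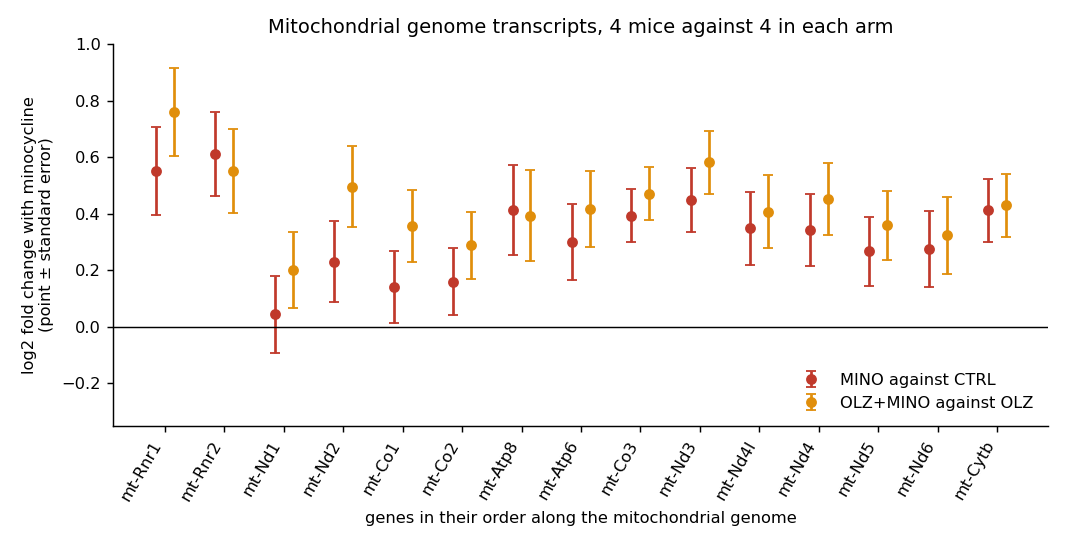
Log2 fold change with minocycline (point) ± standard error of each mitochondrial ribosomal RNA and mRNA, in genome order, in the olanzapine-free and the olanzapine arm. All 30 points lie above 0. The ribosomal RNAs are highest in the olanzapine-free arm, and in the olanzapine arm mt-Nd3 (0.58) lies above mt-Rnr2 (0.55).

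The difference was unequal within the mitochondrial genome. mt-Rnr2 scaled counts per scaled count of the 13 mRNAs, a ratio in which the scaling cancels, were 3.78, 3.49, 3.36 and 3.41 in MINO mice, against 2.54, 2.69, 3.02 and 2.65 in CTRL mice. They were 3.87, 3.14, 3.57 and 2.73 in OLZ+MINO mice, against 3.00, 2.95, 2.82 and 3.02 in OLZ mice. MINO and CTRL did not overlap, but OLZ+MINO mouse 48 was below all 4 OLZ mice. The mean difference was 0.584 (p = 0.00327, two-sided exact permutation test within arms; 0.0049 after adjustment over the 6 measures), and 0.684 without OLZ+MINO mouse 48. This ratio was chosen after the values of the genes were seen, and RNA selection does not cancel in it.

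Other measures of the libraries moved with minocycline. The mRNAs of the mitochondrial genome together took 2.56 ± 0.176% in MINO and 2.23 ± 0.322% in CTRL, and 2.80 ± 0.374% in OLZ+MINO and 2.25 ± 0.123% in OLZ (SD, n = 4 each). Gm26924 took 0.823 ± 0.164% in MINO and 1.69 ± 1.11% in CTRL, and 0.548 ± 0.269% in OLZ+MINO and 0.841 ± 0.337% in OLZ (SD, n = 4 each), a difference of -0.579 points (p = 0.0257, two-sided exact permutation test, also after adjustment over the 6 measures). Without CTRL mouse 5, CTRL averaged 1.15 ± 0.306% (SD, n = 3) and the difference was -0.309 points (unadjusted p = 0.0412, exact permutation test), and the unadjusted p ran from 0.011 to 0.0849 with 1 library left out, a check chosen after seeing the data. On the log2 scale Gm26924 had a difference of -0.75 (SE 0.31, limma adjusted p = 0.866, exact permutation test p = 0.0531), and its scaled counts overlapped in both arms. Lars2, whose annotated transcript also takes reads of ribosomal RNA type, had a log2 fold change of -0.93 (SE 0.31, limma adjusted p = 0.866). With log2 Gm26924 added as a covariate, a choice made after seeing the data, 0 genes passed 0.05 and 0 passed 0.3 (884 had an unadjusted p under 0.05), while the median of the 15 mitochondrial genes was 0.27 with 15 of 15 positive. The total scaled count was higher too, 9052000 ± 259700 in MINO and 8835000 ± 109600 in CTRL, and 9039000 ± 176200 in OLZ+MINO and 8552000 ± 96520 in OLZ (SD, n = 4 each). Scaling every library to its nuclear genes gave 3 calls, mt-Rnr1, mt-Co3 and mt-Nd3.

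The calls depended on single libraries. Leaving out 1 library at a time gave 0 to 3 genes at 0.05. There were 0 without MINO mouse 26 or 36, CTRL mouse 4 or 5, or any 1 of the OLZ+MINO and OLZ mice, and 3 without MINO mouse 35 or CTRL mouse 11. The main effect median of the 15 mitochondrial genes stayed between 0.32 and 0.43, with 15 of 15 positive each time. Without CTRL mouse 5 and OLZ+MINO mouse 48 together, 0 genes passed 0.05, 2 passed 0.3, both mitochondrial, and the median was 0.26. Quantile normalization called mt-Nd3 alone and gave mt-Rnr2 a log2 fold change of 0: it was the most abundant gene of every library, and that method equalizes values of equal rank.

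Setd1b was the 1 nuclear gene with an adjusted p under 0.3. It encodes a histone methyltransferase found at promoters (chr5:123142193-123168629, plus strand, GRCm38). It had 195, 174, 182 and 206 scaled counts in MINO mice, against 133, 104, 106 and 133 in CTRL mice. It had 187, 197, 209 and 256 in OLZ+MINO mice, against 157, 158, 133 and 187 in OLZ mice. MINO was above CTRL without overlap, and in the olanzapine arm the lowest OLZ+MINO and the highest OLZ value were equal. The log2 fold change was 0.54 (SE 0.097, limma adjusted p = 0.0881), with 0.67 in the olanzapine-free arm and 0.42 in the olanzapine arm. Its adjusted p ran from 0.0525 to 0.399 over the alternatives and was 0.399 with the Gm26924 covariate.

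Nuclear genes of the same organelle were described by list. Of 76 mitochondrial ribosomal proteins, 0 passed the test, 2 were higher at an unadjusted p under 0.05 (Mrpl40, 0.21 on the log2 scale, and Mrps10, 0.15) and 0 lower, and their median was 0.03. The 2 are 2.63% of the list, beside 2.84% of all genes higher and 2.68% lower at that level, the shares against which the lists that follow are also to be read. Of 30 translation factors and transfer RNA synthetases, 0 were higher and 3 lower at that level, Lars2 among them, with Pars2 (-0.47) and Wars2 (-0.43), which charge transfer RNAs with proline and tryptophan. Of 58 nuclear subunits of the respiratory chain, 0 were higher and 1 lower (Ndufs3 of complex I, -0.13), and their median was 0.02. Tfam and Polrmt, the packaging factor and the RNA polymerase of the mitochondrial genome, had -0.10 and -0.05.

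Genes of stress responses known to follow a block of mitochondrial translation in other systems were listed as well. Of 30 genes of the integrated and mitochondrial stress response, 0 were higher and 1 lower at an unadjusted p under 0.05 (the cystine transporter Slc7a11, -0.20), and the list was split 15 to 15 by sign. Atf4, its central transcription factor, had a log2 fold change of 0.01 (standard error 0.092). Among 23 reported targets of minocycline (matrix metalloproteinases, cell death genes and PARP enzymes), 0 were higher and 1 lower, the nuclear alarmin Hmgb1 (-0.21, standard error 0.056, adjusted p = 0.706 from limma).

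**Figure D3:**
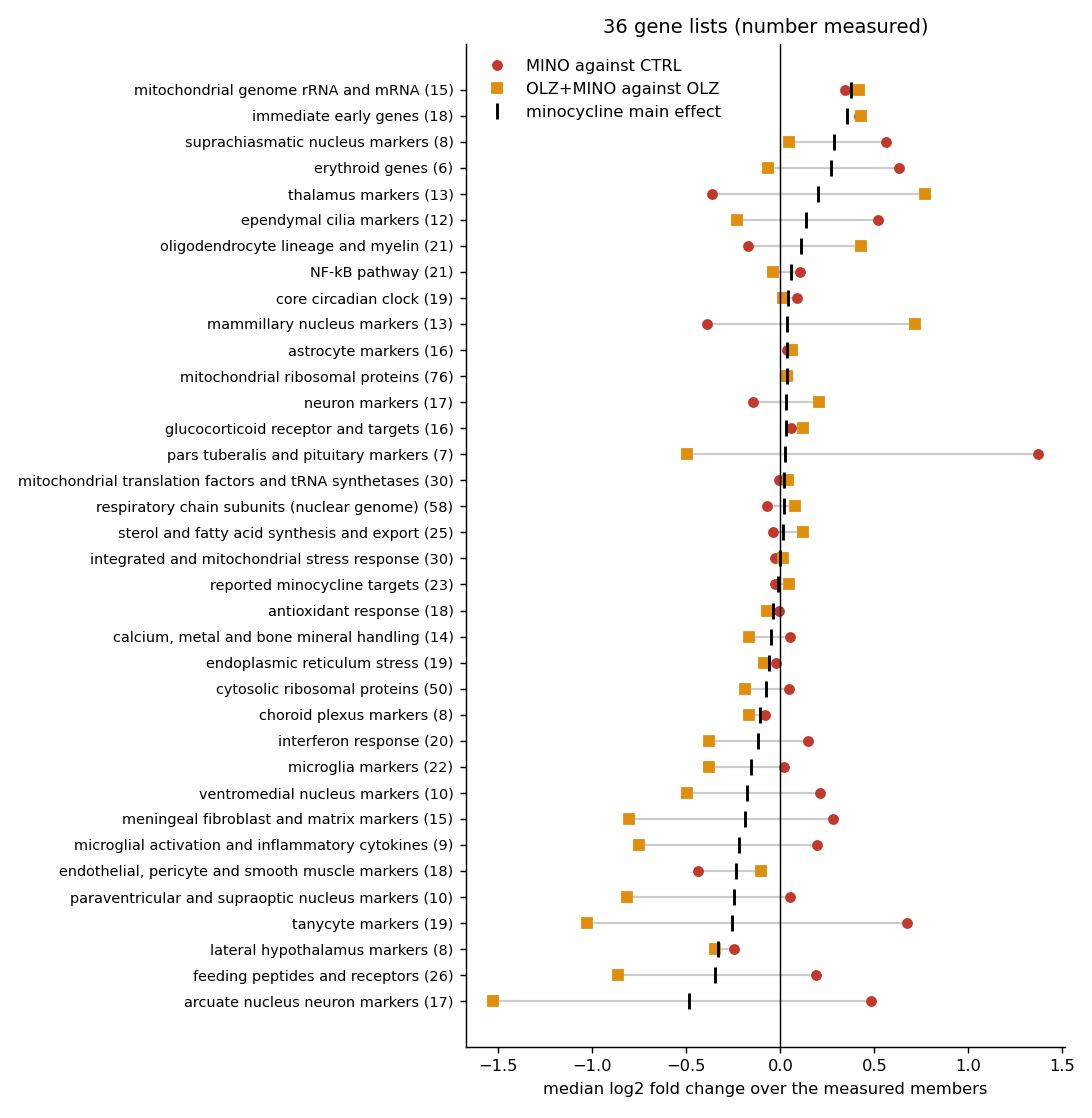
Median log2 fold change over the measured members of 36 gene lists (number measured in brackets) for MINO against CTRL (circles), OLZ+MINO against OLZ (squares) and the main effect (bars), sorted by the main effect. The mitochondrial genome (0.38) and the immediate early genes (0.36) lead, and the arms lie on opposite sides of 0 for arcuate, tanycyte and thalamus markers.

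Immediate early genes, which neurons transcribe within minutes of activity, had the next highest median, 0.36, with 0.42 in the olanzapine-free arm and 0.43 in the olanzapine arm. Of 18 measured, 0 passed the test, 17 were positive, and 7 were higher and 0 lower at an unadjusted p under 0.05 (Npas4, Egr1, Fosb, Nr4a1, Nr4a3, Fos and Arc), that is 38.9% of the list beside 2.84% of all genes. The count was 4 to 7 over the alternatives. Npas4, a transcription factor induced by calcium entry, had 57, 41, 78 and 97 scaled counts in MINO mice, against 13, 27, 20 and 97 in CTRL mice. It had 30, 47, 68 and 93 in OLZ+MINO mice, against 24, 23, 23 and 29 in OLZ mice. CTRL mouse 11 equalled the highest MINO mouse, and the olanzapine arm did not overlap. Its log2 fold change was 1.13 (SE 0.32, limma adjusted p = 0.708).

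Egr1, a zinc finger factor of the same class, had 206, 150, 198 and 251 scaled counts in MINO mice, against 128, 142, 62 and 234 in CTRL mice. It had 180, 284, 223 and 236 in OLZ+MINO mice, against 128, 187, 63 and 121 in OLZ mice. CTRL mouse 11 was high again and both arms overlapped. Its log2 fold change was 0.80 (SE 0.23, limma adjusted p = 0.711). The mean level of the list over its members was 7.19 on the log2 scale in CTRL mouse 11, the highest of the 16 libraries, and that library also held thalamus markers. The next highest level was 7.16, in OLZ+MINO mouse 48, the library with the highest level of thalamus markers (10.4). Leaving out 1 library at a time, the main effect median ran from 0.31 to 0.55, the highest without OLZ+MINO mouse 37. In the olanzapine-free arm the median ran from 0.21 without CTRL mouse 5 to 0.66 without CTRL mouse 11. In the olanzapine arm it ran from 0.26 without OLZ mouse 17 to 0.64 without OLZ+MINO mouse 37. With the Gm26924 covariate the main effect median was 0.26, and 4 members had an unadjusted p under 0.05.

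Of 19 core clock genes, 0 passed the test, and 4 were higher (21.1%, beside 2.84% of all genes) and 0 lower at an unadjusted p under 0.05. The count was 1 without MINO mouse 35, and 2 without CTRL mouse 11, OLZ mouse 17 or OLZ+MINO mouse 48. The 4 were the repressors Per1 (0.28), Per2 (0.27) and Nr1d1 (0.24) and the activator Npas2 (0.32), and the list median was 0.04. Per1 is also a target of the glucocorticoid receptor. The labels and methods do not state at which times of day the mice were killed.

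Microglia markers, for the resident immune cells that minocycline is known to quiet, had a median of -0.16. Of 22, 0 passed the test, and 5 were lower and 0 higher at an unadjusted p under 0.05 (among them Fcrls, Olfml3, Tmem119 and Ctss), which is 22.7% of the list beside 2.68% of all genes lower. The count was 1 with the Gm26924 covariate and ran from 2, without OLZ mouse 13 or 19 or OLZ+MINO mouse 40 or 47, to 7, without MINO mouse 35 or CTRL mouse 11. Fcrls, a receptor-like gene of resting microglia, had 81, 98, 111 and 88 scaled counts in MINO mice, against 80, 121, 90 and 92 in CTRL mice. It had 44, 59, 57 and 76 in OLZ+MINO mice, against 141, 120, 89 and 86 in OLZ mice. The first arm overlapped throughout and the second did not overlap. Over the list the medians were 0.02 in the olanzapine-free arm and -0.38 in the olanzapine arm. The mean level of the list was 6.88 to 6.95 in OLZ mice, above the 6.56 to 6.87 of MINO, the 6.59 to 6.78 of CTRL and the 6.42 to 6.70 of OLZ+MINO mice.

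**Figure D4:**
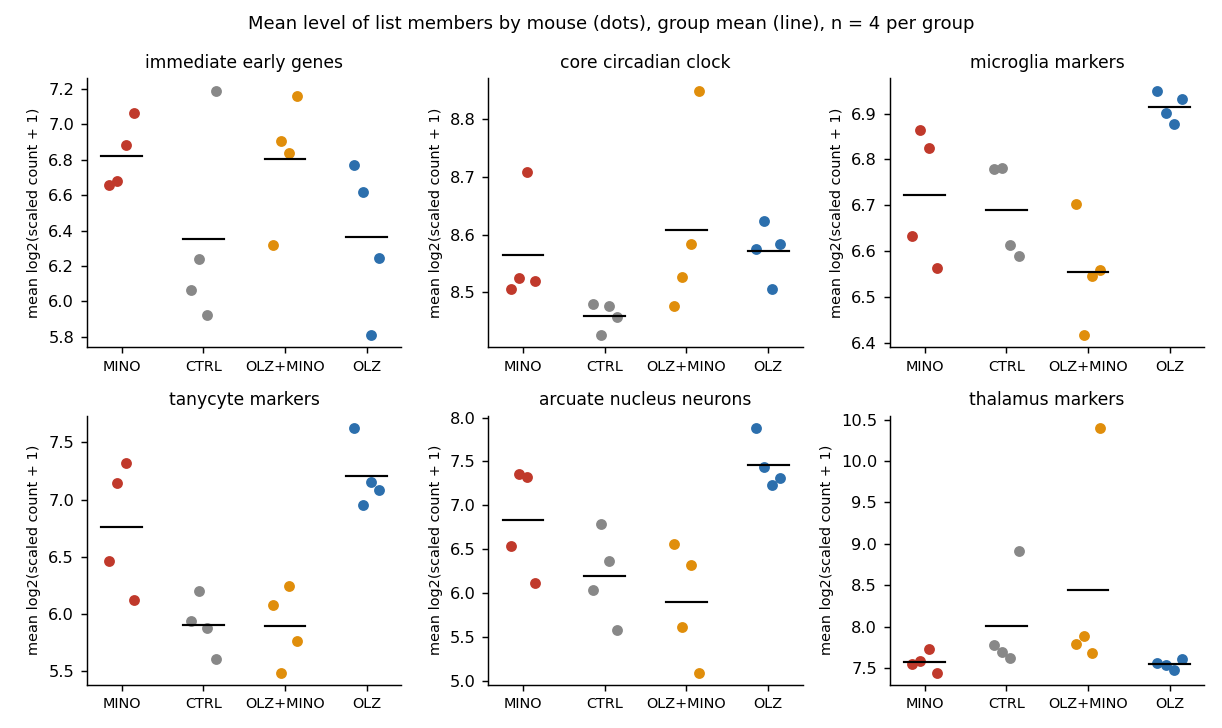
Mean log2(scaled count + 1) over the members of 6 lists, by mouse (dots) with the group mean (line), for MINO, CTRL, OLZ+MINO and OLZ (n = 4 each). For immediate early genes both arms overlap, with CTRL mouse 11 (7.19) above all MINO mice and OLZ+MINO mouse 37 (6.32) below OLZ mice 13 (6.77) and 14 (6.62). OLZ mice lie highest for microglia, and OLZ+MINO mouse 48 (10.4) and CTRL mouse 11 (8.92) stand apart for thalamus markers.

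Among all genes, 13 showed no overlap in both arms in the same direction (0.0823% of the genes tested), 6 higher and 7 lower. The 6 higher were mt-Nd3, mt-Co3, mt-Cytb, mt-Rnr2 and 2 nuclear genes that did not pass the test. Zcchc2, a zinc finger gene, had 317, 322, 318 and 325 scaled counts in MINO mice, against 234, 311, 296 and 265 in CTRL mice, and 393, 355, 393 and 375 in OLZ+MINO mice, against 336, 327, 327 and 310 in OLZ mice. Grk6, a kinase that desensitizes G protein-coupled receptors, had means of 325.5 ± 19.2 in MINO and 278.2 ± 19.9 in CTRL, and 344.8 ± 23.6 in OLZ+MINO and 298.5 ± 19.5 in OLZ (SD, n = 4 each). Both had a log2 fold change of 0.22 and an adjusted p of 0.706 (limma).

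The 7 lower genes without overlap did not pass the test either. Cnpy4, a chaperone of Toll-like receptors, had the largest difference, -0.47 (SE 0.11, limma adjusted p = 0.626). It had 62, 76, 67 and 82 scaled counts in MINO mice, against 96, 90, 95 and 89 in CTRL mice, and 60, 99, 66 and 74 in OLZ+MINO mice, against 104, 109, 124 and 100 in OLZ mice. The others were Aldh1b1 (-0.44), a mitochondrial aldehyde dehydrogenase, the transcription factor Ets1 (-0.41), Dedd2 (-0.38), the phosphatase Dusp26 (-0.19), Arl2bp (-0.16) and the nuclear protein Nucks1 (-0.14). Among the lower genes with the smallest p, Snapin, which binds the vesicle fusion machinery, had -0.24 (SE 0.055, limma adjusted p = 0.626).

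The other 3 of those lower genes were the predicted gene Gm3002 and the entries Gm10241 and Rpl10a-ps1, names that mark predicted genes or pseudogenes, whose reads may be shared with near-identical copies. Gm3002 was at 0 in 5 of 8 libraries with minocycline. It had 0, 0, 7 and 12 scaled counts in MINO mice, against 23, 47, 71 and 14 in CTRL mice, and 0, 41, 0 and 0 in OLZ+MINO mice, against 7, 15, 22 and 34 in OLZ mice. Its log2 fold change was -3.10, or -5.15 with a pseudocount of 0.1, so its size depends on the pseudocount. The log2 fold changes were -0.66 for Gm10241 and -0.45 for Rpl10a-ps1.

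The arms were also tested one at a time. In the olanzapine-free arm, 0 genes passed 0.05 and 0 passed 0.3 (990 at an unadjusted p under 0.05, limma). In the olanzapine arm 49 passed 0.05 (0.31% of the genes tested), 20 higher and 29 lower, and 2446 passed 0.3. mt-Nd3, mt-Co3 and mt-Rnr1 were among the 49, with adjusted p of 0.0408, 0.048 and 0.048 (limma). The count of 49 moved when 1 library was left out. Among the OLZ+MINO mice it was 296 when mouse 37 was omitted, 2 for mouse 40, 120 for mouse 47 and 5 for mouse 48. Among the OLZ mice it was 0 for mouse 13, 10 for mouse 14, 4 for mouse 17 and 30 for mouse 19, and among the CTRL mice 16 for mouse 3 or 4 and 31 for mouse 5. Across the 15792 genes the log2 fold changes of the arms had a Pearson correlation of -0.21 and a Spearman correlation of -0.23. Genes are not independent replicates, and no p is given.

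The test of the difference between the arms called 39 genes (0.247% of the genes tested), 9 higher in the olanzapine arm and 30 lower. In all 39 the arms had opposite signs, and 0 of the 39 were among the 6 genes of the main effect. The additive effect averages such genes towards 0. Scn7a, a sodium channel gene of tanycytes, the glia that line the third ventricle, had 278, 699, 724 and 274 scaled counts in MINO mice, against 298, 300, 209 and 223 in CTRL mice. It had 173, 227, 260 and 139 in OLZ+MINO mice, against 1077, 670, 699 and 686 in OLZ mice. MINO mice 31 and 35 lay within the range of the OLZ mice and MINO mice 26 and 36 within that of CTRL, and OLZ+MINO was wholly below OLZ. Its log2 fold changes were 0.80 and -1.98, a difference of -2.78 (SE 0.41, limma adjusted p = 0.0181).

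Npy, the orexigenic neuropeptide of the arcuate nucleus, had 38, 98, 129 and 77 scaled counts in MINO mice, against 30, 67, 15 and 26 in CTRL mice. It had 22, 47, 24 and 21 in OLZ+MINO mice, against 205, 108, 94 and 114 in OLZ mice. MINO overlapped CTRL, OLZ+MINO lay wholly below OLZ, and the difference between the arms was -3.52 (SE 0.59, limma adjusted p = 0.0181). Erap1, an aminopeptidase that trims peptides for antigen presentation, had 148, 126, 140 and 134 in MINO mice, against 103, 95, 114 and 113 in CTRL mice. It had 71, 98, 107 and 99 in OLZ+MINO mice, against 180, 177, 180 and 175 in OLZ mice. Both of its arms were without overlap, in opposite directions, and the difference between them was -1.30 (SE 0.18, limma adjusted p = 0.0181).

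The other genes with the 10 smallest p of this test were the receptor Tshr, the tanycyte genes Fndc3c1 and Col23a1, the arcuate transcription factor Tbx3, Sft2d2, Zbtb20 and the potassium channel Kcna6, the 1 that was higher in the olanzapine arm. Tanycyte markers had medians of 0.67 in the olanzapine-free arm and -1.03 in the olanzapine arm, with 18 and 3 of 19 positive. Arcuate nucleus markers had 0.48 and -1.53, with 17 and 1 of 17 positive, and the first of these was 0.26 without MINO mouse 31 or 35 or CTRL mouse 11. Thalamus markers had -0.37 in the olanzapine-free arm, but -0.08 without CTRL mouse 11, and 0.77 in the olanzapine arm, but 0.26 without OLZ+MINO mouse 48. Their median in the main effect was 0.20, and -0.13 without CTRL mouse 5 and OLZ+MINO mouse 48 together. Meningeal markers had 0.28 and -0.80, the second being -0.35 without OLZ mouse 19, and their main effect median turned to 0.02 without that mouse, against -0.19 with it. The medians of these anatomical markers had opposite signs in the arms, and their part in the interaction was not tested. The count of 39 moved with single libraries too. Among the MINO mice it was 2 when mouse 31 or 35 was omitted and 190 for mouse 36, and among the CTRL mice 12 for mouse 3, 67 for mouse 4 and 9 for mouse 11. Among the OLZ+MINO mice it was 133 for mouse 37, 10 for mouse 40 and 110 for mouse 47, and among the OLZ mice 0 for mouse 13, 19 for mouse 14 and 20 for mouse 17.

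**Figure D5:**
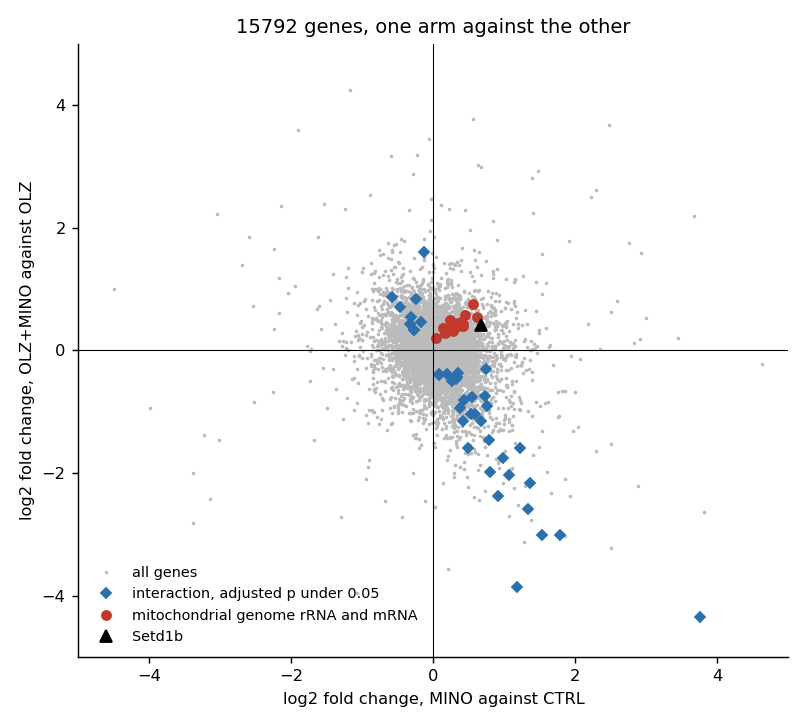
Log2 fold change in the olanzapine arm, OLZ+MINO against OLZ (vertical), over that in the olanzapine-free arm, MINO against CTRL (horizontal), for 15792 genes (grey), of which 1 lies outside the axes, with the 39 interaction genes (diamonds), the 15 mitochondrial genes (circles) and Setd1b (triangle) marked. The mitochondrial genes and Setd1b lie in the upper right quadrant, and all 39 interaction genes in the upper left or lower right quadrant.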

How the data were processed

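RNA was sequenced from 1 hypothalamus per mouse, 4 mice in each of the groups MINO, CTRL, OLZ+MINO and OLZ. Per the labels and methods of the study, the authors used Bowtie2 to map reads to mouse transcripts, RSEM to count reads per gene and limma for their comparisons. The submitters' processing notes name the build mm9. Tool versions, the kind of RNA selection, the scaling method and the use of strand were not stated there. The deposited values, treated as a score, are whole numbers that are not raw counts, since the same CTRL library differs between the tables by a near constant factor, so no count model was used. The values themselves point to reads per gene times 1 factor per library, rounded (0 to 88 of 7883 to 8221 low values per library lay off the steps of such a factor). Read depth was estimated from which whole numbers the values from 10 to 200 take, and the estimates of the 2 tables for the same CTRL library differed by up to 220000 reads. The deposited log2 ratios, fold changes, local false discovery rates and false discovery rates are the authors' own comparisons and were not used, nor was a small sheet that repeats 6 genes.

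The tables, of 15983 and 16005 genes, were joined on Ensembl identifiers. The table of CTRL and MINO was divided by 1.00542, the median ratio of its CTRL columns to the same columns of the other table (ratios of sums 1.00481 to 1.00617), and each CTRL library was used once. The lowest gene mean was 8.6, so no filter was set. Symbols turned into dates (23) were replaced by the GENCODE symbol of the identifier.

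log2(value + 1) was fitted with limma 3.58.1 in R 4.3.3, with an intensity trend and olanzapine as an additive term. The arms and their difference came from a group means model. Single shares were compared with exact permutation tests within arms. The genes named were up to 10 with the largest rise and fall past 0.05 without overlap in both arms (filled up by smallest p without overlap), the 5 smallest p in each direction, the mitochondrial ribosomal RNAs, list members, and the 10 smallest p of the interaction. Genes and 36 lists were chosen with earlier results of these data known, and lists carry no test. The fits were tested on simulated data. Alternatives were quantile and median of ratios scaling, a pseudocount of 0.1, a minimum mean of 50, no trend, library weights, the other source of CTRL values, no rescaling of the joined table, other models, a threshold of 0.3, and each library left out. Left-out libraries for the other shares and for list medians by arm, a pair of libraries left out together, scaling to nuclear genes and a Gm26924 covariate were added after seeing the data. Coordinates and sequences are those of GRCm38 with GENCODE M21 and entered no test.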

Additional observations from a re-analysis of the deposited data

Results flagged for a closer look

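Among the groups of 4 mice of the genes named and the shares, 172 were examined for 1 value far from the other 3, and 13 had one. Chance gives about 1 in 20 such groups where groups are independent and normally spread. These groups share the same 16 libraries, and their genes were chosen from these data. The 13 can therefore not be read against that rate. OLZ mouse 13 was the far library in 8 of the 13. It had 671 scaled counts of Dusp26 (574 to 586 in the other OLZ mice), 155 of Ets1 (89 to 96), 602 of Gm10241 (319 to 362), 1077 of Scn7a (670 to 699), 96 of Tshr (39 to 43) and 446 of Tbx3 (157 to 197). It was low for mt-Atp6, with 15162 scaled counts (17749 to 17911), and for the share of the mitochondrial mRNAs, 2.06% (2.29% to 2.33%). Tshr, Scn7a and Tbx3 are markers of the tuberal region around the arcuate nucleus and the third ventricle.

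In OLZ+MINO mouse 40, Gm3002 had 41 scaled counts, with 0 in the other 3 OLZ+MINO mice, and Npy had 47 (21 to 24 in the others). Arl2bp had 689 in OLZ+MINO mouse 47 (708 to 710), and Snapin had 332 in OLZ+MINO mouse 48 (287 to 292). Gm10241 had 458 in CTRL mouse 3 (352 to 366 in the other CTRL mice).

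The minocycline effect differed between mice with and without olanzapine for the 10 genes with the smallest p of the interaction (limma, all at an adjusted p of 0.0181). The difference on the log2 scale, the olanzapine arm minus the olanzapine-free arm, was -8.1 for Fndc3c1, -4.81 for Tshr, -4.54 for Col23a1, -3.52 for Npy, -3.3 for Tbx3, -2.78 for Scn7a, -1.57 for Sft2d2, -1.3 for Erap1, -0.772 for Zbtb20 and 0.631 for Kcna6. None of the 10 passed 0.05 without OLZ mouse 13, where the highest adjusted p of the 10 was 0.0787. Fndc3c1 had 11, 5, 0 and 0 scaled counts in CTRL mice and 9, 0, 4 and 5 in OLZ+MINO mice. Tshr had 3, 9, 14 and 10 in CTRL mice and 8, 2, 11 and 4 in OLZ+MINO mice. With a pseudocount of 0.1 the difference was -10.77 for Fndc3c1 and -5.175 for Tshr, so both sizes depend on the pseudocount.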

How the results depend on the processing

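The main effect called 2 genes under median of ratios scaling, a pseudocount of 0.1, a minimum mean of 50, the other source of CTRL values, no rescaling, no olanzapine term and the group means model, each time mt-Nd3 and mt-Co3. It called 1 gene, higher, with quantile normalization or without the intensity trend, 4, all higher, with library weights, and 6, all higher, at an adjusted p under 0.3. It called 0 genes, 0 higher, with the Gm26924 covariate and without CTRL mouse 5 and OLZ+MINO mouse 48 together, both chosen after seeing the data. OLZ+MINO against OLZ gave 49 calls, against 28 with quantile normalization, 28 with a pseudocount of 0.1, 5 without the trend, 14 with library weights, 5 without that pair of libraries and 2446 at 0.3. The interaction gave 39, against 25 with a pseudocount of 0.1, 1 without the trend, 62 with library weights and 2239 at 0.3. Quantile normalization turned the log2 fold change of mt-Rnr2 to 0. Library weights were lowest for OLZ+MINO mouse 48 (0.5) and CTRL mouse 5 (0.654). Apart from the construction of quantile normalization, the cause of these moves was not tested.

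With 1 library left out at a time, the main effect called 0 to 3 genes, 0 to 3 higher and 0 to 0 lower, MINO against CTRL called 0 to 0, OLZ+MINO against OLZ 0 to 296 and the interaction 0 to 190. Genes without overlap in both arms numbered 16 to 29 against 13 with all libraries, since fewer libraries make non-overlap easier. The difference in mt-Rnr2 share ran from 2.61 to 2.94 points and that in mt-Rnr2 per mitochondrial mRNA from 0.493 to 0.684. Over single genes and all alternatives, 1019 values kept direction and side of the threshold, 71 no longer passed it, 6 newly passed it and 1 turned. Most of these genes were not past the threshold in the main fit and could not lose it. mt-Nd3 stayed under 0.05 (limma adjusted p) in 14 of 29 alternatives and mt-Co3 in 13 of 29. No paired analysis was possible because the mouse numbers are not shared between groups. Depth of 8000000 to 9740000 reads leaves genes of a few scaled counts, such as the transfer RNA genes mt-Ta and mt-Tq, with little precision.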

Other observations

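Other gene lists had 0 calls in the main effect at an adjusted p under 0.05 or 0.3 (limma), and their members are given at an unadjusted p under 0.05, where 2.84% of all genes were higher and 2.68% lower. A count of 1 member in lists of this size is given as a value only. Of 50 cytosolic ribosomal proteins, 1 was higher (Rpl28, 0.47 on the log2 scale) and 6 lower (Rps4x, -0.15, Rpl15, -0.22, Rpl14, -0.17, Rplp2, -0.17, Rps16, -1.69, and Rpl3, -0.12), with a median of -0.08 over the list (0.05 in the olanzapine-free arm and -0.19 in the olanzapine arm). The 6 lower are 12% of the list, and 3 (without OLZ mouse 13) to 10 members were at that level, in either direction, over the alternatives. Many of these genes have processed pseudogenes, whose reads the counting can split. Rps16 had 213, 26, 159 and 0 scaled counts in MINO mice, against 220, 87, 226 and 233 in CTRL mice, and 106, 257, 250 and 108 in OLZ+MINO mice, against 289, 146, 470 and 383 in OLZ mice, so its groups overlapped in both arms. Of 20 interferon response genes, 0 were higher and 1 lower, the class I antigen H2-K1 (-0.37), and the medians were 0.15 in the olanzapine-free arm and -0.38 in the olanzapine arm. Of 9 measured microglial activation and cytokine genes, 0 were higher and 0 lower, with medians of 0.19 and -0.75 in the same order.

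Of 21 genes of the oligodendrocyte lineage and myelin, 1 was higher (the myelin transcription factor Myrf, 0.40) and 0 lower (6 members at that level without CTRL mouse 11), with medians of -0.17 in the olanzapine-free arm and 0.43 in the olanzapine arm. Of 17 neuron markers, 1 was higher, the nuclear protein Rbfox3. It had 517, 502, 434 and 576 scaled counts in MINO mice, against 432, 481, 469 and 460 in CTRL mice, and 506, 524, 592 and 579 in OLZ+MINO mice, against 464, 461, 449 and 446 in OLZ mice. Its log2 fold change was 0.20 (SE 0.060, limma adjusted p = 0.743), and the first arm overlapped while the second did not. Of 18 endothelial, pericyte and smooth muscle markers, 0 were higher and 1 lower (the efflux pump Abcb1a, -0.30; 4 members at that level without OLZ mouse 19), with a median of -0.24.

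Of 26 feeding peptides and receptors, 0 were higher and 1 lower (Mchr1, the receptor of melanin-concentrating hormone, -0.33; 7 members at that level without CTRL mouse 11), with medians of 0.19 in the olanzapine-free arm and -0.86 in the olanzapine arm. Of 7 pars tuberalis and pituitary genes, 1 was higher, the pituitary hormone Prl, at 0 to 123 scaled counts in the 16 libraries, and the medians were 1.37 and -0.50. Of 13 mammillary nucleus markers, 1 was higher (Ebf1, 0.74), with medians of -0.39 and 0.72. Of 18 antioxidant response genes, 0 were higher and 2 lower, the thioredoxin reductase Txnrd1 (-0.20) and Keap1 (-0.17), the inhibitor of the response. Slc40a1, the iron exporter ferroportin, had a log2 fold change of -0.46 (SE 0.16, limma adjusted p = 0.866).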
